A study of Mus musculus with 6 samples.

Results

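The interferon receptors, the interferon ligands and the Janus kinases (JAKs) that the receptors carry were examined in microglia from lupus mice. The 10 genes were chosen by name and matched by Ensembl identifier. They are the receptor chains Ifnar1, Ifnar2, Ifngr1 and Ifngr2, the ligands Ifnb1 and Ifng, and the kinases Jak1, Jak2, Jak3 and Tyk2. They make up 10 of the 55401 genes in the deposited count table, and all 10 passed the filter on low counts. Brain microglia of MRL/lpr mice, which carry the lpr mutation of the death receptor gene Fas, were compared with those of MRL/mpj mice, the matching strain without it, with 3 untreated samples in each strain at an age of 6 weeks. Cells had been released from perfused brain with collagenase and DNase, banded on Percoll and bound to magnetic beads by CD11b, which other myeloid cells share on their surface, so the selection alone does not separate microglia from them. The sources used here do not say whether each sample came from 1 mouse or a pool, and the p-values measure only the spread between these samples.

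Type I interferons, such as the product of Ifnb1, bind a receptor made of the Ifnar1 and Ifnar2 chains, which carry TYK2 and JAK1. Interferon gamma, the product of Ifng, is made mainly by T cells and NK cells and binds the Ifngr1 and Ifngr2 chains, which carry JAK1 and JAK2. The kinases phosphorylate STAT proteins, which enter the nucleus and switch on interferon-induced genes, while JAK3 works mainly with the common gamma chain of the interleukin receptors. Microglia express both interferon receptors, and drugs that block JAKs are used in inflammatory disease.

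The libraries held 45481609 to 49846634 counts. In each library 1138 to 1288 genes had exactly 4 counts, against 320 to 415 with 3 counts and 211 to 261 with 5 counts. MRL/lpr replicate 3 stood apart, with 6.38% of its counts on the gene CT010467.1 against at most 0.458% in the other libraries. Microglial identity was checked with 13 marker genes. All 13 were detected and their summed level was 25184 to 27904 CPM (counts relative to library size, scaled by the trimmed mean of M values, TMM) in MRL/lpr and 29364 to 30414 CPM in MRL/mpj, with 4 lower and none higher. Cx3cr1, a marker among them, had 132706 counts in MRL/lpr replicate 2 and 10334 to 29349 in the other libraries. The study's methods describe female mice, but Xist had 8886 to 11319 counts in MRL/lpr and 27 to 38 in MRL/mpj, while 4 genes of the Y chromosome summed to 8408 to 15046 counts in every library. Strain and sex makeup therefore cannot be told apart in what follows. Fas had 461, 282 and 298 counts in MRL/lpr and 426, 432 and 362 in MRL/mpj, and these counts cannot tell transcripts of the lpr allele from normal ones.

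Of the 10 genes, Jak3, Jak1 and Tyk2 were higher in MRL/lpr, Ifngr1 and Ifnb1 were lower, and 5 did not pass the test. A gene passed when its p from the quasi-likelihood test of edgeR, adjusted by Benjamini and Hochberg's method over all genes tested, was under 0.05. This threshold was passed by 20.2% of the 19554 genes tested (11.1% higher and 9.06% lower). Only Jak3 also reached the study's minimum of 1 in absolute log2 fold change, a rule that 8.34% of all genes met (4.67% higher and 3.66% lower). The CPM of the strains did not overlap for 6 of the 10 genes, 4 of them higher and 2 lower in MRL/lpr, against 39% of all genes tested (19.6% higher and 19.4% lower). The median log2 fold change of the 10 genes was 0.08, and that of all genes tested was -0.01.

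**Figure D1:**
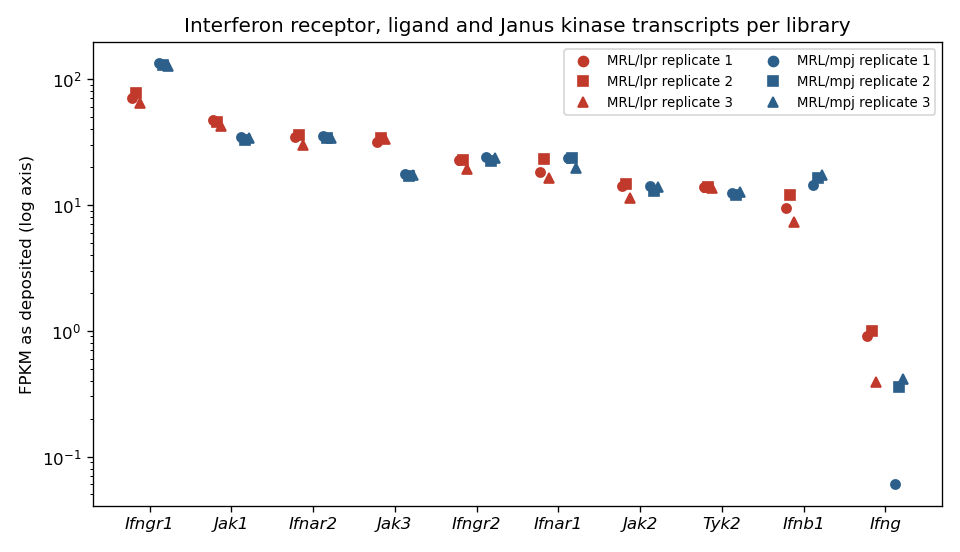
Deposited FPKM of the 10 genes (log axis) in each of the 6 libraries, ordered by mean level; red marks MRL/lpr, blue marks MRL/mpj, and the marker shape gives the replicate. Ifngr1 lies highest in both strains (63.8 to 76.8 FPKM in MRL/lpr and 127 to 133 FPKM in MRL/mpj), and Ifng lies lowest, at or below 1 FPKM in all 6 libraries.

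Levels were compared between genes by FPKM (fragments per kilobase of transcript, scaled to the total number of fragments), which divides by length. Ifngr1 had the highest level in both strains, with a mean of 70.4 ± 6.54 FPKM in MRL/lpr and 129.6 ± 2.77 FPKM in MRL/mpj (SD, n = 3). In MRL/mpj it was followed by Ifnar2 (34.5 FPKM) and Jak1 (33.9 FPKM), whose ranges overlapped, and then by Ifngr2 (23.3 FPKM) and Ifnar1 (22.1 FPKM), whose ranges overlapped as well. Jak3 (17.3 FPKM) and Ifnb1 (15.9 FPKM) came next with overlapping ranges, ahead of Jak2 (13.6 FPKM), Tyk2 (12.3 FPKM) and Ifng (0.277 FPKM). In MRL/lpr the order changed at Jak1, Jak3 and Ifnb1, and Jak2 and Tyk2 changed places. The ranges of Jak2 and Tyk2 were separate in MRL/mpj and overlapped in MRL/lpr. Jak1 (44.9 FPKM) stood above Ifnar2 (33.4 FPKM) without overlap, and Jak3 (32.9 FPKM) overlapped Ifnar2 and stood above Ifngr2 (21.6 FPKM) and Ifnar1 (19.2 FPKM). Tyk2 (13.8 FPKM), Jak2 (13.3 FPKM) and Ifnb1 (9.53 FPKM) followed, each overlapping the next, and Ifnb1 lay below Tyk2 without overlap. Ifng was again lowest, at 0.767 FPKM. The plot of FPKM by library shows this order and the shifts of Ifngr1 and Jak3.

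Ifngr1, the ligand-binding chain of the interferon gamma receptor, was lower in every MRL/lpr library (ENSMUSG00000020009, GRCm38, chromosome 10, 19591949 to 19610229). It had 10837, 11825 and 9204 counts in MRL/lpr and 20866, 19719 and 20243 counts in MRL/mpj. Scaled to depth this was 231, 251 and 220.2 CPM against 406, 394 and 389 CPM, so the highest MRL/lpr library stood well below the lowest MRL/mpj library. On the log2 scale Ifngr1 changed by -0.76 from MRL/mpj to MRL/lpr (SE 0.07, adjusted p = 5.22e-05 by edgeR), a fall to 0.590 of the MRL/mpj level with a 95% interval of 0.532 to 0.655. Leaving out each library in turn gave log2 fold changes between -0.82 and -0.71. The summed level of 5 choroid plexus and ependymal markers was also lower in MRL/lpr (337 to 350 CPM against 1004 to 1082 CPM), with 3 of 5 lower. Ttr held most of this sum, with a mean of 302 CPM in MRL/lpr and 942 CPM in MRL/mpj. Foxj1 and Tmem212 were not called, and Tmem212 overlapped between the strains. Of the 13 microglial markers, 4 were lower as well. Neuronal markers summed to 11.1 to 12.8 CPM in MRL/lpr and 23.8 to 26.2 CPM in MRL/mpj, with 2 of 5 lower. Oligodendrocyte markers summed to 84.0 to 99.3 CPM against 123 to 152 CPM, with 2 of 5 lower, and astrocyte markers to 96.8 to 139 CPM against 169 to 175 CPM, with 1 of 5 lower. That astrocyte marker was Slc1a3, with a mean of 66.1 CPM in MRL/lpr and 130 CPM in MRL/mpj. Gfap and Aldh1l1 stood higher in MRL/lpr without overlap but did not pass the test, and Aqp4 and Gja1 overlapped. The mitochondrial share of counts was 3.06% to 3.49% in MRL/lpr and 5.84% to 6.38% in MRL/mpj. Fewer cells of a type and less RNA per cell cannot be told apart in bulk samples, and the part of these cells and of the mitochondrial share in the fall of Ifngr1 was not tested.

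Ifngr2, the second chain of the same receptor, which carries JAK2, did not pass the test. Its counts were 4646, 4637 and 3681 in MRL/lpr and 4995, 4536 and 4935 in MRL/mpj, which is 98.8, 98.5 and 88.1 CPM against 97.2, 90.7 and 94.8 CPM. The strains overlapped, and the log2 fold change was 0.01 (95% interval -0.16 to 0.18, adjusted p = 0.934 from edgeR). The ratio of Ifngr1 to Ifngr2 within a library does not depend on scaling between libraries. In FPKM it was 3.09, 3.37 and 3.31 in MRL/lpr and 5.53, 5.75 and 5.43 in MRL/mpj. The strains did not overlap, with two-sided exact permutation p = 0.1, the smallest that 3 samples against 3 allow, and 0.175 after Benjamini-Hochberg adjustment over 7 such measures chosen after the values were seen.

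The promoters of the 2 chains are shown because 1 chain passed the test and the other did not. Each holds the 250 bases before the RefSeq start on GRCm38.p6, written along the gene from 5′ to 3′. The sequence is that of C57BL/6J, not of the MRL strains. Capitals mark matches to 5 motifs, sought on both strands. The ISRE, the element of type I interferon targets, was searched as GAAA repeated after 2 bases of any kind. The GAS, the element of interferon gamma targets, was searched as TTCNNNGAA, where N is any base. A form of the NF-kB element was searched as GGGAA followed, after 1 base of any kind, by TTCC. The TATA box was searched as TATAAA. The GC box, which binds SP1, was searched as GGGCGG. The matches of different motifs did not overlap in the sequences shown.
Ifngr1 (chr10:19591699-19591948, plus strand): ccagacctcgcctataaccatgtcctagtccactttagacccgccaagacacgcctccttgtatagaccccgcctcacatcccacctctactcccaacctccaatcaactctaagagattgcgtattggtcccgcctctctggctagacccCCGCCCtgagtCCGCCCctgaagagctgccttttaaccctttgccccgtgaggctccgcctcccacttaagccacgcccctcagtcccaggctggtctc
Ifngr2 (chr16:91546809-91547058, plus strand): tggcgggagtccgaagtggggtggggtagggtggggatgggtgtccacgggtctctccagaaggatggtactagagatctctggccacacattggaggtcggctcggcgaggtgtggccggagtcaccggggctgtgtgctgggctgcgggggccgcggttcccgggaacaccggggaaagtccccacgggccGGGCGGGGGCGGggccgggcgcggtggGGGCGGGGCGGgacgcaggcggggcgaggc
The Ifngr1 window held 2 GC box matches and the Ifngr2 window 4, with a G+C content of 59.2% and 74.0%. Neither held a match to the other motifs. Among 32851 RefSeq promoter windows of the same length, 32.7% held a GC box match, 12.4% TATAAA, 7.02% the GAS motif, 2.98% the ISRE motif and 0.283% the NF-kB motif. A match or its lack describes these letters only.

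The type I receptor chains did not pass the test. Ifnar1, which carries TYK2, had 125, 157 and 117 CPM in MRL/lpr and 149.9, 149 and 125 CPM in MRL/mpj. MRL/lpr replicate 2 was the highest of all 6 libraries and the other MRL/lpr libraries were the lowest, so the strains overlapped. The log2 fold change of Ifnar1 was -0.09 (95% interval -0.36 to 0.18, adjusted p = 0.677 from edgeR). Ifnar2, the chain that carries JAK1, had 133, 136 and 121 CPM in MRL/lpr and 127, 121 and 122 CPM in MRL/mpj. Its log2 fold change was 0.07 (95% interval -0.09 to 0.23, adjusted p = 0.557 from edgeR), and the strains overlapped. The ratio of Ifnar1 to Ifnar2 FPKM was 0.572 ± 0.0658 in MRL/lpr and 0.641 ± 0.0607 in MRL/mpj (SD, n = 3; two-sided exact permutation p = 0.2, adjusted p = 0.233).

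These 2 genes and Ifngr2 lie close together on mouse chromosome 16. On GRCm38 in GENCODE M21, Ifnar2 spans 91372783 to 91405589, Ifnar1 spans 91485238 to 91507441 and Ifngr2 spans 91547072 to 91565623. Il10rb, the shared chain of the interleukin-10 and type III interferon receptors, lies between Ifnar2 and Ifnar1, from 91406164 to 91425834. It had 4188, 4427 and 4150 counts in MRL/lpr and 4838, 4676 and 5269 in MRL/mpj, a log2 fold change of -0.03 with adjusted p = 0.818 from edgeR. None of the 4 receptor genes of this cluster passed the test, and the values of Ifnar2 and Ifngr2 changed sign, to -0.05 and -0.11, when libraries were scaled by their size alone. Ifnlr1, the specific chain of the type III receptor, had 23, 21 and 14 counts in MRL/lpr and 0, 0 and 8 in MRL/mpj, with adjusted p = 0.155 from edgeR.

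**Figure D2:**
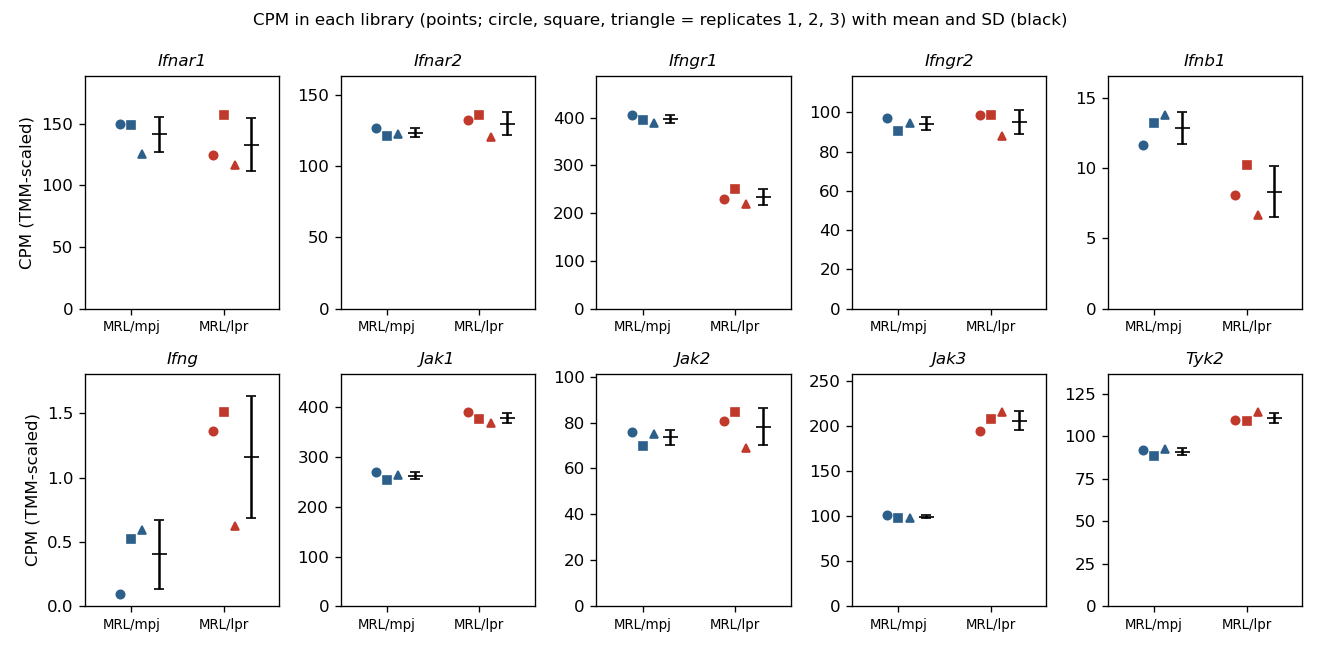
TMM-scaled CPM of each gene in the 3 MRL/mpj (blue) and 3 MRL/lpr (red) libraries; each axis starts at 0, and black marks give the mean and SD (n = 3). The strains are apart for Ifngr1, Ifnb1, Jak1, Jak3 and Tyk2, touch for Ifng (lowest MRL/lpr library 0.622 CPM, highest MRL/mpj library 0.596 CPM), and overlap for the other 4 genes.

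Ifnb1, the interferon beta gene, was lower in MRL/lpr. It had 380, 481 and 279 counts in MRL/lpr and 597, 658 and 717 in MRL/mpj, or 8.08, 10.2 and 6.68 CPM against 11.6, 13.2 and 13.8 CPM. Each MRL/lpr library stood below each MRL/mpj library, though the highest MRL/lpr value lay near the lowest MRL/mpj value. Its log2 fold change came to -0.63 (SE 0.18, adjusted p = 0.0336 by edgeR). The call of Ifnb1 was lost when any library but MRL/lpr replicate 2 was left out, with adjusted p between 0.0597 and 0.116 from edgeR, and blocking by replicate number gave 0.0597. Leaving out MRL/lpr replicate 2 gave 0.0158. The gene is a single exon of 750 bases (ENSMUSG00000048806, chromosome 4, 88522025 to 88522774). Its promoter, shown because Ifnb1 was the sole type I interferon gene with an appreciable count, held 1 NF-kB match and 2 TATAAA matches.
Ifnb1 (chr4:88522795-88523044, minus strand): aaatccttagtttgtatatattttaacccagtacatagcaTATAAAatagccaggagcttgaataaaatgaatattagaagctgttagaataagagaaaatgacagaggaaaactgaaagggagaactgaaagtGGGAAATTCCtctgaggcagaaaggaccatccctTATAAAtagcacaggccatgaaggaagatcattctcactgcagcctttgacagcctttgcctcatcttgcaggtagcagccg
The NF-kB match GGGAAATTCC began 116 bases before the RefSeq start. The window had a G+C content of 39.6% and no GC box match.

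Of 19 other interferon ligand genes, which code for interferon alpha subtypes, epsilon, kappa, zeta and lambda, none passed the filter on low counts. In all, 15 of them had 0 counts in every library, which allows a level of up to 0.0577 to 0.0718 CPM for counting error alone. Ifnk reached 11 counts in MRL/lpr replicate 3, and no other gene of this list exceeded 4 counts in any library. The interferon alpha genes resemble one another, so reads between them could have been split or dropped by the authors' counting.

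Ifng, the interferon gamma gene, was detected near the lower end of the data (ENSMUSG00000055170, chromosome 10, 118441046 to 118445892). It had 64, 71 and 26 counts in MRL/lpr and 5, 26 and 31 in MRL/mpj, or 1.36, 1.51 and 0.622 CPM against 0.0973, 0.520 and 0.596 CPM. MRL/lpr replicates 1 and 2 were high, while MRL/lpr replicate 3 stood level with MRL/mpj replicates 2 and 3. The gene Gm49751 lies on the same strand, shares 336 exon bases with Ifng in GENCODE M21 and had 2 to 24 counts. The log2 fold change of Ifng was 1.52 with a wide 95% interval of -0.01 to 3.05, and the adjusted p of 0.159 from edgeR missed the threshold. Most markers of the cells that make interferon gamma were higher in MRL/lpr. The 9 T cell markers summed to 21.9 to 28.1 CPM in MRL/lpr and 7.05 to 7.67 CPM in MRL/mpj, with 7 of 9 higher. The 8 NK cell markers summed to 16.6 to 20.1 CPM and 4.22 to 5.70 CPM, with 5 of 8 higher. The other 3, Ncr1, Tbx21 and Klrb1c, were not called, and the strains overlapped for each. Klrb1c pointed the other way, with 23, 0 and 0 counts in MRL/lpr and 75, 16 and 82 in MRL/mpj. Cd8b1, which defines CD8 T cells, had 70, 77 and 28 counts in MRL/lpr and 0 in each MRL/mpj library, at least 21.6-fold higher by summed CPM against a floor of 3 counts per library. No marker of either list was at 0 in all libraries. The part of these cells in the Ifng values was not tested.

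The 4 Janus kinases had a summed level of 100.2 to 108 FPKM in MRL/lpr and 74.8 to 78.8 FPKM in MRL/mpj, without overlap. These sums carry no TMM scaling and were not tested between the strains. Jak3 accounted for the widest shift. Jak3, the kinase bound to the common gamma chain, had 9157, 9792 and 9001 counts in MRL/lpr and 5215, 4909 and 5127 in MRL/mpj (ENSMUSG00000031805, chromosome 8, 71676296 to 71690575). In CPM this was 195, 208 and 215 against 101, 98.2 and 98.5, and the lowest MRL/lpr library lay far above the highest MRL/mpj library. Jak3 thus rose by 1.05 on the log2 scale (SE 0.07, adjusted p = 6.87e-06 by edgeR), a level 2.07 times that of MRL/mpj with a 95% interval of 1.87 to 2.30. With scaling by library size only it was 0.93, below the study's fold-change minimum. Jak3 is also strongly expressed by lymphocytes, and most T cell and NK cell markers were higher as given above. Of 5 B cell markers, 4 were tested and none was called. Of those tested, 3 stood higher in MRL/lpr without overlap, and the other had a log2 fold change of -0.30. The summed level of the B cell markers overlapped between the strains. The part of lymphocytes in the Jak3 values was not tested. The gene Insl3 lies on the same strand and shares 404 exon bases with Jak3 in GENCODE M21, and it had 46 to 52 counts in MRL/lpr and 17 to 22 in MRL/mpj.

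The common gamma chain gene Il2rg was also higher in MRL/lpr. It had 1117, 1032 and 950 counts in MRL/lpr and 594, 617 and 667 in MRL/mpj, a log2 fold change of 0.90 with adjusted p = 0.000311 from edgeR. The ratio of Jak3 to Il2rg FPKM was 4.05 ± 0.331 in MRL/lpr and 3.64 ± 0.261 in MRL/mpj (SD, n = 3; two-sided exact permutation p = 0.2, adjusted p = 0.233), and the strains overlapped.

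Jak1, the kinase shared by the type I and interferon gamma receptors, was higher in MRL/lpr (ENSMUSG00000028530, chromosome 4, 101152367 to 101265282). It had 18337, 17768 and 15392 counts in MRL/lpr and 13880, 12736 and 13745 in MRL/mpj, or 390.0, 377 and 368 CPM against 270.1, 255 and 264 CPM. The strains did not overlap, and the spread within each was small beside the difference. Jak1 rose by 0.53 on the log2 scale (SE 0.06, adjusted p = 0.000234 by edgeR), a level 1.44 times that of MRL/mpj with a 95% interval of 1.31 to 1.58.

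Tyk2, the kinase of the Ifnar1 chain, was higher by a smaller margin. It had 109.7, 109 and 114 CPM in MRL/lpr and 92.0, 88.5 and 92.6 CPM in MRL/mpj, again without overlap. Tyk2 rose by 0.28 on the log2 scale (SE 0.07, adjusted p = 0.0144 by edgeR). The adjusted p was 0.129 with scaling by library size only, 0.0540 with the replicate block, 0.0540 without MRL/mpj replicate 1 and 0.0782 without MRL/mpj replicate 2.

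Jak2, the kinase of the Ifngr2 chain, did not pass the test. It had 80.9, 84.4 and 69.1 CPM in MRL/lpr and 75.9, 69.9 and 75.1 CPM in MRL/mpj, and MRL/lpr held both the highest and the lowest library. The log2 fold change was 0.09 (95% interval -0.12 to 0.29, adjusted p = 0.586 from edgeR), and -0.03 with scaling by library size only. Jak2 lies on chromosome 19 from 29251828 to 29313080, on the chromosome that carries Fas (34290666 to 34327772), the gene in which the strains differ.

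The promoters of Jak3 and Jak1, the kinases with the most distinct strain differences, held 1 GC box match each and no match to the ISRE, GAS, NF-kB or TATAAA motifs.
Jak3 (chr8:71676133-71676382, plus strand): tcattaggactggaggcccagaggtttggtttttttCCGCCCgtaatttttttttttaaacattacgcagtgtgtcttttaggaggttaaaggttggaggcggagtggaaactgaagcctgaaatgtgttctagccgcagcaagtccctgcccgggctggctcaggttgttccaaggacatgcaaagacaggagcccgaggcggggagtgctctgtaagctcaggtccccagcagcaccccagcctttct
Jak1 (chr4:101265224-101265473, minus strand): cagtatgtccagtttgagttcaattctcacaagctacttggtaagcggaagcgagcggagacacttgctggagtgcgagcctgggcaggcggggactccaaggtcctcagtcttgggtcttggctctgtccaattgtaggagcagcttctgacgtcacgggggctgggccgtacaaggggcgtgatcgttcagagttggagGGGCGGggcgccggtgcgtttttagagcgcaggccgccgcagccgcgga
Among all 10 genes, no window held the ISRE motif, and the GAS motif matched in the windows of Ifnar2 and Ifng, once in each.

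**Figure D3:**
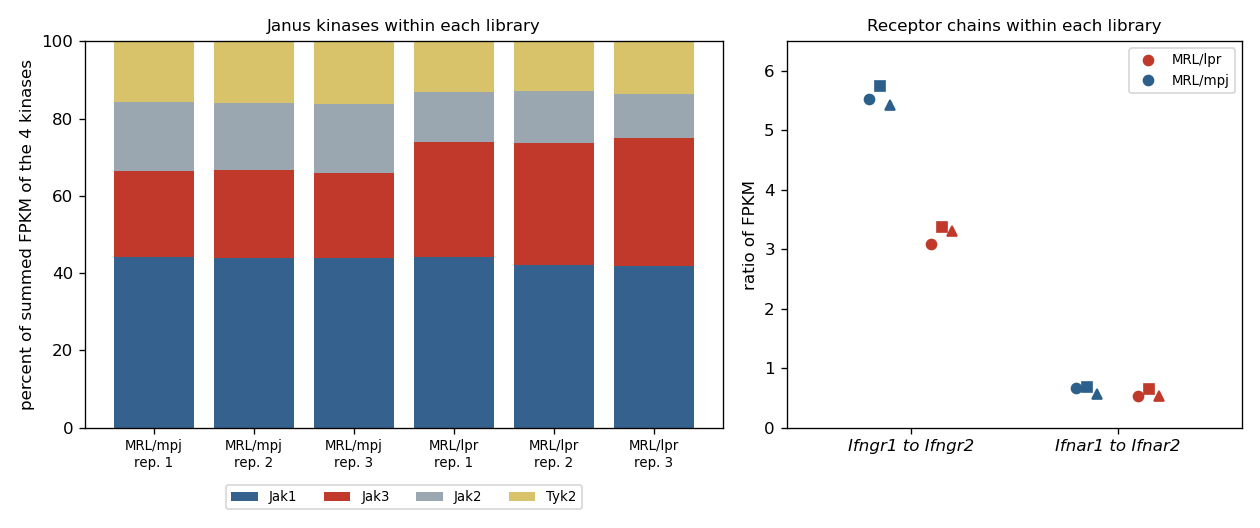
Left, percent of the summed FPKM of Jak1, Jak3, Jak2 and Tyk2 taken by each kinase in each library. Right, ratio of Ifngr1 to Ifngr2 and of Ifnar1 to Ifnar2 FPKM in each library (blue, MRL/mpj; red, MRL/lpr; marker shape, replicate): Jak3 takes 29.7% to 33.1% in MRL/lpr against 22.1% to 22.8% in MRL/mpj, and the Ifngr1 to Ifngr2 ratio is lower in each MRL/lpr library.

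Within each library, the kinases kept different shares of their summed FPKM. Jak3 took 31.4% ± 1.69 in MRL/lpr and 22.4% ± 0.372 in MRL/mpj (SD, n = 3), without overlap. The share of Jak2 was 12.7% ± 1.2 against 17.7% ± 0.330, and that of Tyk2 was 13.2% ± 0.446 against 16.0% ± 0.184. Each of these 3 shares had a two-sided exact permutation p = 0.1, the smallest possible here, and 0.175 after adjustment. Jak1 took 42.7% ± 1.17 in MRL/lpr and 43.9% ± 0.123 in MRL/mpj (exact permutation p = 0.4), and its share overlapped between the strains although its level was higher. In the stacked shares the Jak3 segment is wider in each MRL/lpr library and the Jak2 and Tyk2 segments are narrower.

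**Figure D4:**
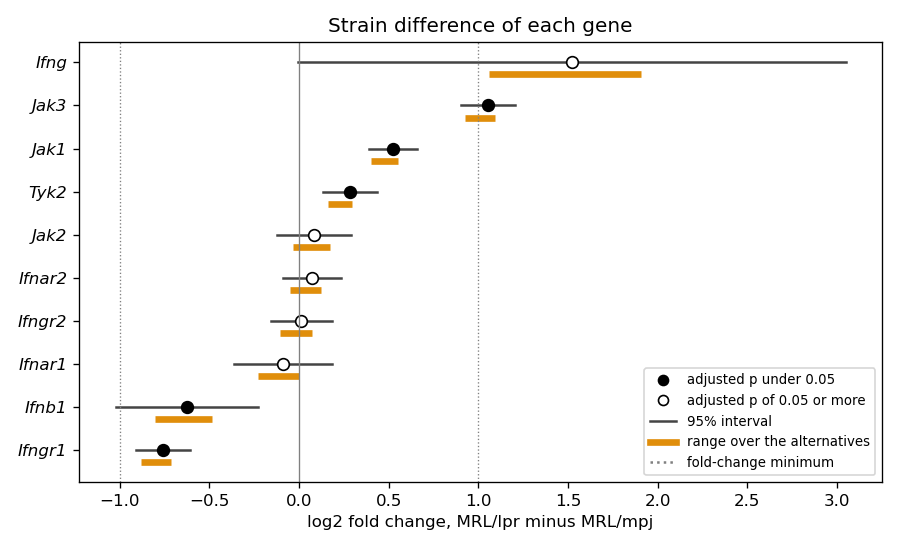
Log2 fold change of each gene (MRL/lpr minus MRL/mpj; points, filled where the adjusted p was under 0.05) with its 95% interval (line) and the range over the alternative fits (orange); dotted lines mark the fold-change minimum of 1. The ranges of Ifngr1, Jak1, Jak3, Tyk2, Ifnb1 and Ifng stay on 1 side of 0. Calls were lost in 7 alternatives for Ifnb1 and 5 for Tyk2, against 1 each for Ifngr1, Jak1 and Jak3. Ifng was not called, and its 95% interval runs from -0.01 to 3.05.

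The genes whose pattern was most like those of the 3 members with the smallest adjusted p were sought among 9297 other genes with a mean of at least 10 CPM, by Pearson correlation of log2 CPM over the 6 libraries. For Jak3 these were Arvcf (r = 0.999), Xdh (r = 0.999) and H2-Aa (r = 0.999). For Ifngr1 they were Tppp (r = 0.9998) and Atp1b3 (r = 0.999), and for Jak1 they were Akap12, Cd1d1 and Rrbp1, each with r = 0.998. The points fall into 2 strains, so such values are common. In all, 778 genes reached r = 0.95 with Jak3, 500 with Ifngr1 and 729 with Jak1.

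Downstream of the kinases, 5 of 8 genes for the STAT transducers and their partner Irf9 were higher in MRL/lpr and none was lower. Their median log2 fold change was 0.30. By the same rule, 11.1% of all genes tested were higher and 9.06% lower. Stat2, which joins the type I interferon complex, had 5284, 5109 and 3954 counts in MRL/lpr and 2361, 1906 and 2731 in MRL/mpj, and rose by 1.21 on the log2 scale (adjusted p = 0.000126 from edgeR). Irf9, the DNA-binding part of that complex, rose by 0.64 and Stat3, the main transducer of interleukin-6, by 0.30. The CPM of the strains did not overlap for any of these 3 genes, nor for 39% of all genes tested. Stat3 lost its call with scaling by library size only (log2 fold change 0.18, adjusted p = 0.0787 from edgeR).

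Among 36 other receptor chains that use Janus kinases, 30 were tested, 9 were higher and 4 were lower, with a median log2 fold change of 0.11, against 11.1% higher and 9.06% lower among all genes. The higher genes with the smallest adjusted p were Il3ra (log2 fold change 2.45), Lifr (0.70), Crlf2 (1.68) and Il4ra (0.92), which encode chains of the receptors for interleukin-3, leukaemia inhibitory factor, TSLP and interleukin-4. The 4 lower genes were Prlr (-2.24), Il21r (-0.55), Il7r (-0.41) and Il6st (-1.23). Il21r, Il7r and Il4ra encode partners of the common gamma chain, as do Il2rb (log2 fold change 2.05, adjusted p = 0.000525) and Il15ra (0.65, adjusted p = 0.0442), both higher by edgeR, so called partners moved in both directions. Prlr encodes the prolactin receptor and is expressed in choroid plexus. Of the 5 choroid plexus and ependymal markers, 3 were lower as given above. The part of choroid plexus cells in the Prlr values was not tested. Il6st lost its call without MRL/lpr replicate 3, with adjusted p = 0.0757 from edgeR.

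Of 20 negative regulators of JAK-STAT signalling, 4 were higher and none was lower, with a median log2 fold change of 0.16. Over all genes tested, 20.2% were called, with 11.1% higher and 9.06% lower. Usp18, an interferon-induced protein that blocks JAK1 at Ifnar2, had 1216, 1270 and 1351 counts in MRL/lpr and 218, 222 and 222 in MRL/mpj, and rose by 2.72 on the log2 scale (adjusted p = 1.48e-06 from edgeR). Cish rose by 0.94, Socs3 by 0.38 and the phosphatase gene Ptprc (CD45) by 0.54. Socs1, the inhibitor best known for interferon gamma signalling, had 229, 250 and 189 counts in MRL/lpr and 175, 199 and 222 in MRL/mpj, with adjusted p = 0.288 from edgeR.

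The induced genes moved further than the members. Of 30 type I interferon induced genes, 28 were higher and none was lower, with a median log2 fold change of 1.9. Zbp1, a sensor of Z-form nucleic acid, rose by 4.10, Ifit3 by 3.30, Irf7 by 2.86 and Oasl1 by 2.72 on the log2 scale. Of 24 interferon gamma induced genes, 19 were higher and none was lower, with a median of 1.11. Irf1, Irf8, Gbp5, Irgm2 and Socs1 were not called, and Gbp5 had a log2 fold change of -0.12. Which interferon raised the genes of either list was not tested. Gbp3, a guanylate-binding protein gene, rose by 2.98, and the antigen presentation genes H2-Aa, Cd74 and H2-Eb1 rose by 2.26, 2.13 and 1.76. Usp18 stands on 2 of the lists, and so does Socs1. The lists were chosen with earlier results of these data known, and their counts stand beside the 11.1% of all genes that were higher.

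**Figure D5:**
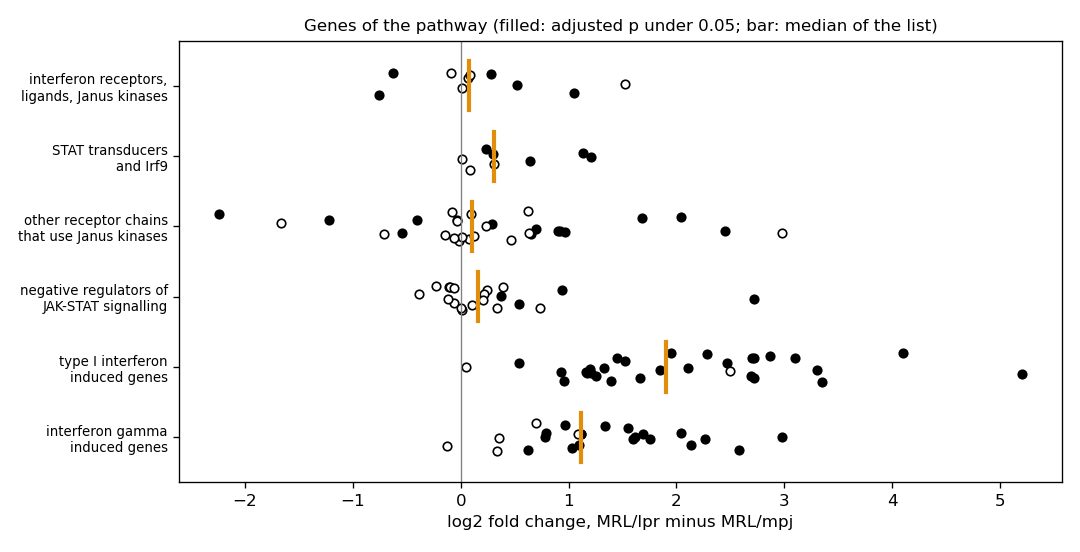
Log2 fold change (MRL/lpr minus MRL/mpj) of each tested gene of 6 lists; filled points had an adjusted p under 0.05 and the orange bar is the median of the list. The interferon-induced lists lie to the right (medians 1.9 and 1.11), and the members lie around 0 (median 0.08).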

How the data were processed

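CD11b-selected brain cells of MRL/lpr and MRL/mpj mice were profiled by paired-end RNA sequencing, with 3 libraries in each strain. Per the labels, total RNA was depleted of ribosomal RNA, whereas the study's methods describe purified mRNA. The submitters' processing notes name cutadapt 1.9.3, HISAT2 2.0.4, Cuffdiff 2.2.1, Cufflinks and GRCm38. The authors deposited raw counts per gene, and FPKM values that they had normalised for length and depth. The counting tool, its annotation and its strand setting are not given in the sources used here. Genes sharing exon bases could therefore share reads.

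Counts were tested with edgeR 4.0.16 in R 4.3.3 (filterByExpr with a count minimum of 10, TMM scaling, robust quasi-likelihood test, no replicate block), with Benjamini-Hochberg adjustment over 19554 genes. Deposited counts totalled 45481609 to 49846634 per library. FPKM served for levels between genes, for the summed level of the 4 kinases and for ratios within a library. Only the ratios and shares within a library were tested on FPKM, by exact permutation. The floor for a count of 0 was 3 counts, and intervals are at the 95% level. Intervals from a count of 0 cover counting error only. Symbols were found for 55141 of 55401 identifiers, and the other 260 stayed in the library sizes. The procedure was tested on simulated data.

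Named genes were the 10 members and, in each pathway list and direction, up to 4 genes with the smallest adjusted p. Some genes that the naming rules cover are not reported here. Il10rb, Il2rg, Il2rb, Il15ra, Ifnlr1, Ifnk, Irf1, Irf8, Gbp5, Irgm2, Socs1, Cd8b1, Insl3 and Gm49751 were named after their values were seen, as were the 7 ratios and shares. The members and lists were chosen with earlier results of these data known. Alternatives were DESeq2 1.42.0, scaling by library size, other filters, a test against the fold-change minimum, a replicate block and leaving out each library. Promoter sequences came from RefSeq on GRCm38.p6 and matched all 10 members.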

Additional observations from a re-analysis of the deposited data

How the results depend on the processing

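Across 16 alternatives, 845 values stayed on their side of the threshold with the same direction or size, 29 lost a call, 27 moved and 9 changed sign. The 845 include the median over all genes tested, which has no threshold and was counted as unchanged in each alternative whatever its value. Ifngr1, Jak1 and Jak3 kept their calls in each alternative except the test against the fold-change minimum. That test (glmTreat) left 379 genes higher and 237 lower, 0 members higher, 0 lower and 0 at the minimum, and 31 higher and 1 lower gene in the pathway lists. When libraries were scaled by their size alone, the median over all genes tested moved from -0.01 to -0.13 (log2), 2790 genes were lower in place of 1772, 7 pathway genes were lower in place of 4, and 0 members reached the fold-change minimum. The log2 fold change then changed sign for Ifnar2 (-0.050), Ifngr2 (-0.11) and Jak2 (-0.034). Leaving out 1 library at a time gave 1177 to 1971 lower genes, the fewest without MRL/mpj replicate 1, and 1 to 2 lower members. These fits turned the sign of 3 genes that were not called. Fas ranged from -0.28 to 0.089 and was above 0 without the second library of either strain. Ifnar1 ranged from -0.23 to 0.00059, above 0 without MRL/lpr replicate 3. Ifngr2 ranged from -0.016 to 0.070, below 0 without MRL/lpr replicate 1 or 2 or MRL/mpj replicate 2. The causes were not tested. Ifng has no value with at least 10 counts required in every library or with counts divided by 4.

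The labels number the replicates alike in both strains. Deviations of same-numbered libraries correlated at -0.0409, -0.0202 and -0.0325, which gives no sign of pairing. Whether same-numbered libraries shared a litter or a day is not known. With the replicate block, 1754 genes were higher and 1309 lower, and 1 member was lower in place of 2 and 2 higher in place of 3, with adjusted p = 0.0597 for Ifnb1 and 0.0540 for Tyk2 from edgeR.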
